A study of Rattus norvegicus with 12 samples.

Results

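The genes described here encode 7 subunits of the GABA-A receptor, the chloride channel opened by the inhibitory transmitter GABA: the alpha subunits Gabra2, Gabra3, Gabra4 and Gabra5, the beta subunits Gabrb1 and Gabrb2, and the delta subunit Gabrd. They were taken by name from a table of 17339 gene symbols measured in 12 RNA-seq libraries. All 7 had 1 entry each and passed the filter on low values, as did 12073 genes in all. The libraries came from primary cortical neuron cultures of Wistar rats at embryonic day 18, with 3 libraries in each of 4 groups: wild-type cultures left untreated, wild-type cultures with tetrodotoxin (TTX), cultures with a short hairpin RNA against Ehmt1 left untreated, and cultures with that hairpin and TTX. TTX is a sodium channel blocker that stops action potentials, and Ehmt1 encodes a histone H3 lysine 9 methyltransferase. The dose and duration of TTX, the vector and promoter of the hairpin and any control hairpin in the wild-type cultures are not given in the sources used here. The groups allow 3 questions: whether subunit RNA differed with TTX, whether it differed with Ehmt1 knockdown, and whether the TTX change differed between genotypes.

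GABA-A receptors are assembled mostly from alpha and beta subunits together with a gamma or a delta subunit, and the alpha subunit sets much of where the receptor sits and how it responds. Receptors with alpha 2 or alpha 3 are found largely at synapses, whereas alpha 5 receptors and receptors that pair alpha 4 with delta lie largely outside synapses and carry tonic inhibition. Beta subunits contribute to the GABA binding site and to assembly and surface delivery.

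Promoters, from RefSeq on the GRCr8 assembly and covering 250 bases before to 50 bases after the annotated start, were matched for 6 of the 7 genes, all but Gabra2. The 3 shown are those of the genes that passed the test for a TTX change, with matches to 2 short motifs in capitals. The motifs were the GC box GGGCGG and the TATA motif TATAAA, each searched on both strands, so that a match on the opposite strand reads CCGCCC or TTTATA. The windows are chr1:117516557-117516856 (minus strand), chr5:171252660-171252959 (minus strand) and chrX:155543821-155544120 (minus strand).

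Gabra5 promoter: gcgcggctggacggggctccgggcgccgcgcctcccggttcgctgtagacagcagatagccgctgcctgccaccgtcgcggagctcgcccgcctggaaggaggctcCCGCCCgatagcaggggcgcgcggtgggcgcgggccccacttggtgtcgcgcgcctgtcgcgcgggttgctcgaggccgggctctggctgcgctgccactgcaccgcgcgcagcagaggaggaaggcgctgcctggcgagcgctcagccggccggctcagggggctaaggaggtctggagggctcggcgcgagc
Gabrd promoter: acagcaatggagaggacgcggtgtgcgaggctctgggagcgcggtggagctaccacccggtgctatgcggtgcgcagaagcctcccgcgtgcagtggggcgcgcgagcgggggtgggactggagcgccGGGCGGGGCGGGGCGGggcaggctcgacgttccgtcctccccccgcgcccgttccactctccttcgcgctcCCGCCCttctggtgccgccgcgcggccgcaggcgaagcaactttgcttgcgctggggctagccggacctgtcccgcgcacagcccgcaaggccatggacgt
Gabra3 promoter: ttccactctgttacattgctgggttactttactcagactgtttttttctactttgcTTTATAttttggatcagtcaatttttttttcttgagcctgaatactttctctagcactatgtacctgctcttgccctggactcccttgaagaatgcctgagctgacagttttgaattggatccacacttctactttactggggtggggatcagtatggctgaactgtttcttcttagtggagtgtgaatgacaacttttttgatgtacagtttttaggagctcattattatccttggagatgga

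The 3 windows were unlike in composition. That of Gabra5 was 76.3% G and C with 1 GC box, that of Gabrd was 73.7% with 4 GC boxes, of which 3 overlap in a row, and that of Gabra3 was 39.3% with no GC box and 1 TATA motif, set against a median of 51.7% over all promoters in the table. Of the others, the Gabra4 window was 70.7% G and C with 1 GC box, and the windows of Gabrb1 (49.3%) and Gabrb2 (44.0%) held neither motif. A GC box was found in 33.1% of 33469 promoters and a TATA motif in 14.2%. The full cyclic AMP response element TGACGTCA, found in 1.83% of promoters, and the EGR motif GCGTGGGCG, found in 0.544%, were in none of the 6 windows. No motif among those searched was in all 3 of the windows shown.

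Levels are given as read equivalents, the deposited coverage of a gene's transcript divided by an inferred read length of 42 nucleotides, after the authors' scaling for library size. Before that scaling the libraries held 15108848 to 24787516 read equivalents. Transcript lengths were not used, so levels are compared between libraries for 1 gene and not between genes. Ehmt1 was at 1653 ± 103.9 read equivalents in untreated wild-type cultures and 1205 ± 285.7 in untreated knockdown cultures (SD, n = 3 each), and over both treatments the knockdown level was 70.8% of wild-type, a difference that did not pass the test over all genes (log2 difference -0.51, SE 0.168, limma adjusted p = 0.773). Neuronal markers were abundant in every library. The cultures also held glia, with the summed level of 10 astrocyte markers between 101390 and 186896 read equivalents per library. Libraries of the same genotype and number deviated together (r = 0.438 to 0.849 over genes), and TTX changes were fitted within these 6 pairs; the labels do not say that a pair shares a culture, so a shared culture and a shared batch cannot be told apart, and a pair is called a culture below.

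Gabra5, which encodes the alpha subunit of extrasynaptic receptors in hippocampus and deep cortical layers, was the member with the lowest level under TTX relative to its own untreated level. In wild-type libraries 1, 2 and 3 it was at 2158, 2643 and 1917 read equivalents untreated and at 880, 1060.0 and 585 with TTX. In knockdown libraries 1, 2 and 3 it was at 3973, 2348 and 1919 untreated and at 1953, 1262 and 867 with TTX. The wild-type groups did not overlap, as was the case with TTX lower for 6.52% of all genes tested, while in the knockdown the TTX library of pair 1 lay just above the untreated library of pair 3. Within pairs the TTX level was 40.8%, 40.1% and 30.5% of untreated in wild-type and 49.2%, 53.7% and 45.2% in knockdown, so it was lower in 6 of 6 pairs, as were 11.7% of all genes tested. Gabra5 fell 2.71-fold in wild-type cultures (log2 change -1.44, SE 0.104, limma adjusted p = 0.00918) and 2.03-fold in knockdown cultures (log2 change -1.02, SE 0.104, limma adjusted p = 0.0411). It was the 1 member of 7 called in each genotype, where 3.18% of all genes tested were called in wild-type and 0.514% in knockdown, and on the log2 scale its change ranked 40 from the lowest of 12073 in wild-type and 75 from the lowest in knockdown.

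The call for Gabra5 rested on the pairing: with the 4 groups alone and no pairs, the change was the same size and the adjusted p was 0.463 in wild-type, 1 in knockdown and 0.0847 over both. Without any 1 pair in turn, the wild-type call held (adjusted p = 0.0348 to 0.0421), and the knockdown call was lost on leaving out any pair but wild-type pair 1 (adjusted p = 0.0461 to 0.298 over the 6). In bulk RNA, fewer cells of a type and less RNA per cell cannot be told apart, for this and every difference below.

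**Figure D1:**
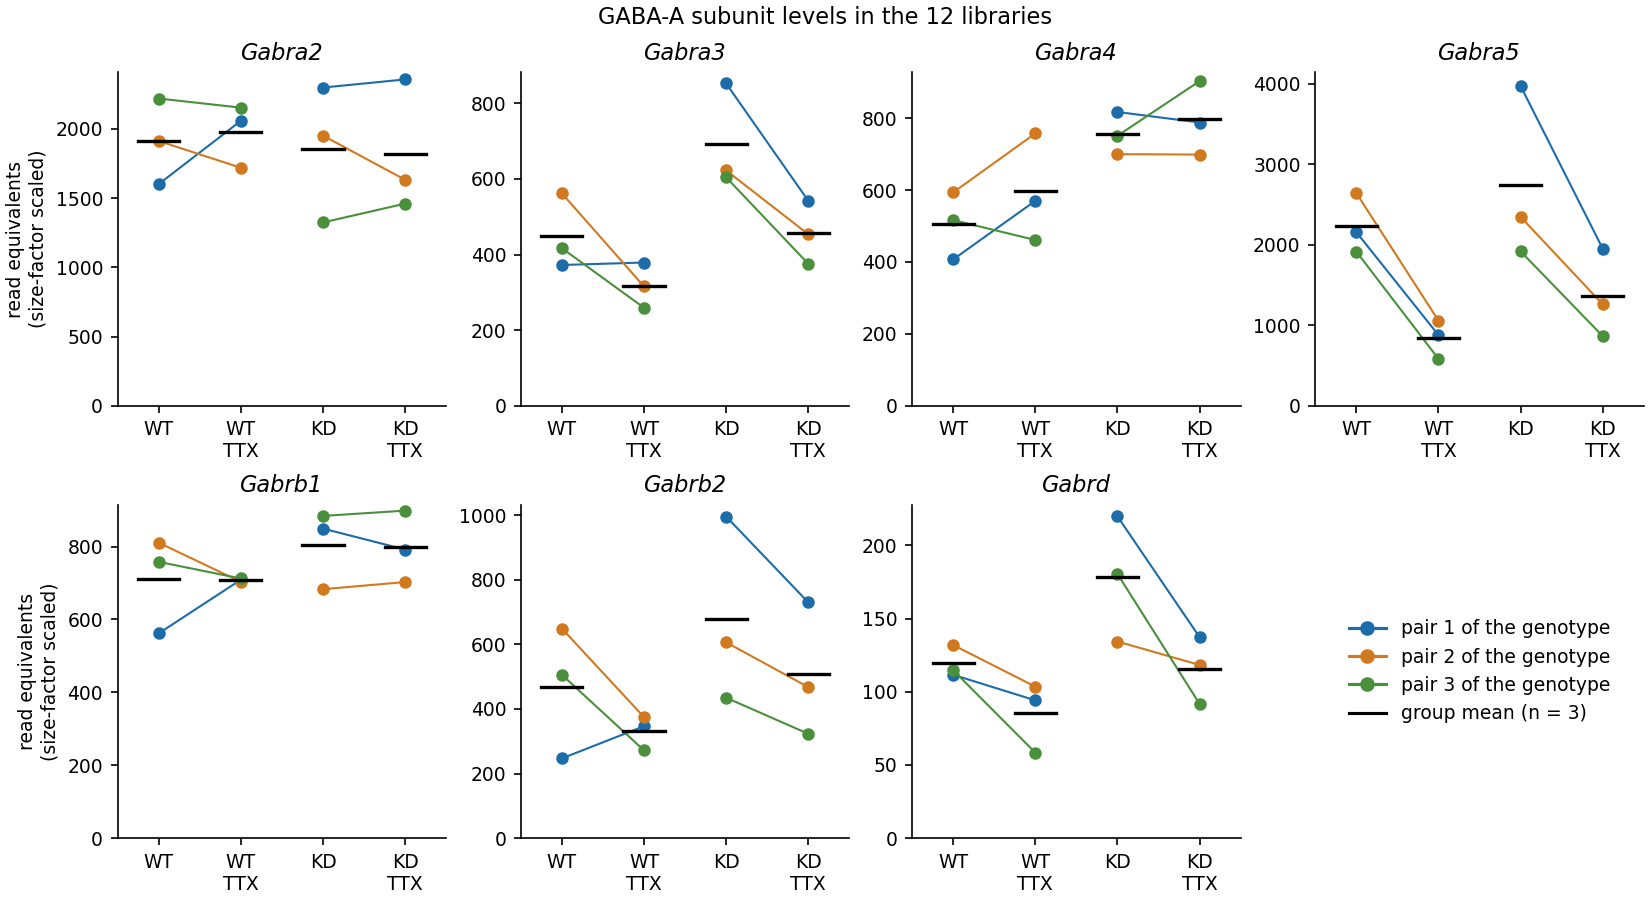
Level of each subunit gene (y axis, read equivalents after the authors' size factors, from 0) in the 12 libraries, with wild-type (WT) and knockdown (KD) cultures untreated or with TTX on the x axis. Colored lines join the untreated and TTX library of a pair and black bars are means of 3 libraries. All 6 lines of Gabra5 and of Gabrd slope down, while those of Gabra2, Gabra4 and Gabrb1 go both ways.

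Gabra3 and Gabrd fell when both genotypes were averaged. Gabra3, an alpha subunit abundant in the developing cortex, was at 373, 562 and 417 read equivalents in untreated wild-type libraries and at 379, 316 and 259.5 with TTX. In knockdown libraries it was at 853, 623 and 604 untreated and at 542, 454 and 376 with TTX. The knockdown groups did not overlap (4.56% of all genes tested had every TTX library of the knockdown below every untreated one). In wild-type the TTX library of pair 1 was level with its untreated partner, and 5 of 6 pairs were lower. Its change averaged over both genotypes was -0.55 on the log2 scale (SE 0.117, limma adjusted p = 0.0343), with -0.50 in wild-type (adjusted p = 0.145) and -0.60 in knockdown (adjusted p = 0.135), neither of which passed. Without wild-type pair 1 the wild-type change was -0.76, and without pair 2 it was -0.33.

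Gabrd, the delta subunit that replaces gamma in tonic receptors, had the fewest read equivalents of the 7 genes. Its wild-type libraries were at 112, 132 and 115 read equivalents untreated and at 94.1, 103.5 and 58.4 with TTX. Its knockdown libraries were at 219.8, 134 and 180.5 untreated and at 137, 118 and 91.7 with TTX. All 6 pairs were lower with TTX, at 50.8% to 88.1% of untreated, as was the case for 11.7% of all genes tested. The wild-type groups did not overlap, as for 6.52% of all genes tested with TTX lower. The knockdown groups did overlap, with the TTX library of pair 1 just above the untreated library of pair 2. The change averaged over both genotypes was -0.56 on the log2 scale (SE 0.134, limma adjusted p = 0.0443), with -0.52 in wild-type (adjusted p = 0.173) and -0.61 in knockdown (adjusted p = 0.17). Without wild-type pair 3 the wild-type change was -0.29.

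Averaged over genotypes, 3 of the 7 members were called, all lower, where 13.0% of all genes tested were called and 7.54% were called lower. The median log2 change of the 7 was -0.41, against 0.02 over all genes. With groups alone the adjusted p was 0.222 for Gabra3 and 0.275 for Gabrd, and with no filter on low values it was 0.0726 and 0.0885. Leaving out a pair ended the call of Gabra3 for any pair but wild-type pair 1 (adjusted p = 0.0114 to 0.122 over the 6) and that of Gabrd for any pair but knockdown pair 2 (adjusted p = 0.0474 to 0.145).

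Gabrb2, the beta subunit of many mature synaptic receptors, did not pass the test. It was at 247, 649 and 506 read equivalents in untreated wild-type libraries and 346.5, 375 and 272 with TTX, and at 995, 606 and 435 in untreated knockdown libraries and 729.7, 467.5 and 323 with TTX. The untreated library of wild-type pair 1 was the lowest of all 12, and that pair was the 1 of 6 in which the TTX library was higher, at 140.4% of untreated. The other wild-type pairs were at 57.7% and 53.7%, and the knockdown pairs at 73.3%, 77.1% and 74.3%. The averaged change was -0.41 on the log2 scale (SE 0.182, limma adjusted p = 0.191). Without wild-type pair 1 it was -0.63 (SE 0.0445, adjusted p = 0.0111), without pair 2 it was -0.31 (adjusted p = 0.334) and without pair 3 it was -0.28 (adjusted p = 0.392). The wild-type change was then -0.84 (adjusted p = 0.042), -0.20 (adjusted p = 0.713) and -0.15 (adjusted p = 0.797), so its size and its call depended on the pairs included.

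Gabra2, Gabra4 and Gabrb1 had no change that passed the test, and each was lower in 3 of 6 pairs. Gabra2, a synaptic alpha subunit, ranged from 1602 to 2220 in untreated wild-type libraries and from 1720 to 2154 with TTX, and from 1325 to 2299 and 1461 to 2358 in the corresponding knockdown groups. Its averaged change was 0.01 on the log2 scale, with a 95% interval of -0.20 to 0.23. Gabra4, the partner of delta in the forebrain, was at 407, 593 and 516.5 read equivalents in untreated wild-type libraries and 569.8, 757 and 461 with TTX, with an averaged log2 change of 0.15 (95% interval -0.09 to 0.38). Gabrb1, a beta subunit also found in glia, was within 703 to 712.5 in the 3 wild-type TTX libraries and had an averaged log2 change of 0.00 (95% interval -0.19 to 0.19).

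Gabra5 stood apart from the other members in each pair taken alone. The log2 change of Gabra5 was lower than that of each of the other 6 genes in 6 of 6 pairs. The difference from Gabrd, the nearest, was -1.05 to -0.18 on the log2 scale and that from Gabra4 was -1.78 to -0.89. No test was made of this order. Wild-type pair 1 differed from the rest in that Gabra2, Gabra3, Gabra4, Gabrb1 and Gabrb2 were all higher in its TTX library, at 101.7% to 140.4% of untreated.

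The GABA-A subunit genes lie in clusters in the rat genome, and the changes with TTX are given by cluster, a grouping chosen after the values were seen and left without a test. In the order of the RefSeq annotation, Gabrb1, Gabra4, Gabra2 and Gabrg1 lie together on chromosome 14, and their averaged log2 changes were 0.00 to 0.21, none called. Gabrg3 and Gabra5 are neighbors on chromosome 1, with changes of -0.21 and -1.23, and both genes were lower in each of the 6 pairs. Gabrb2 lies on chromosome 10 beside Gabra6, which was too low to test. Gabra3 lies on the X chromosome between the subunit genes Gabre and Gabrq, though other genes lie directly beside it. Gabre was too low to test, and Gabrq, at a low level, had a change of -0.64 that was not called. Gabrd lies on chromosome 5.

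**Figure D2:**
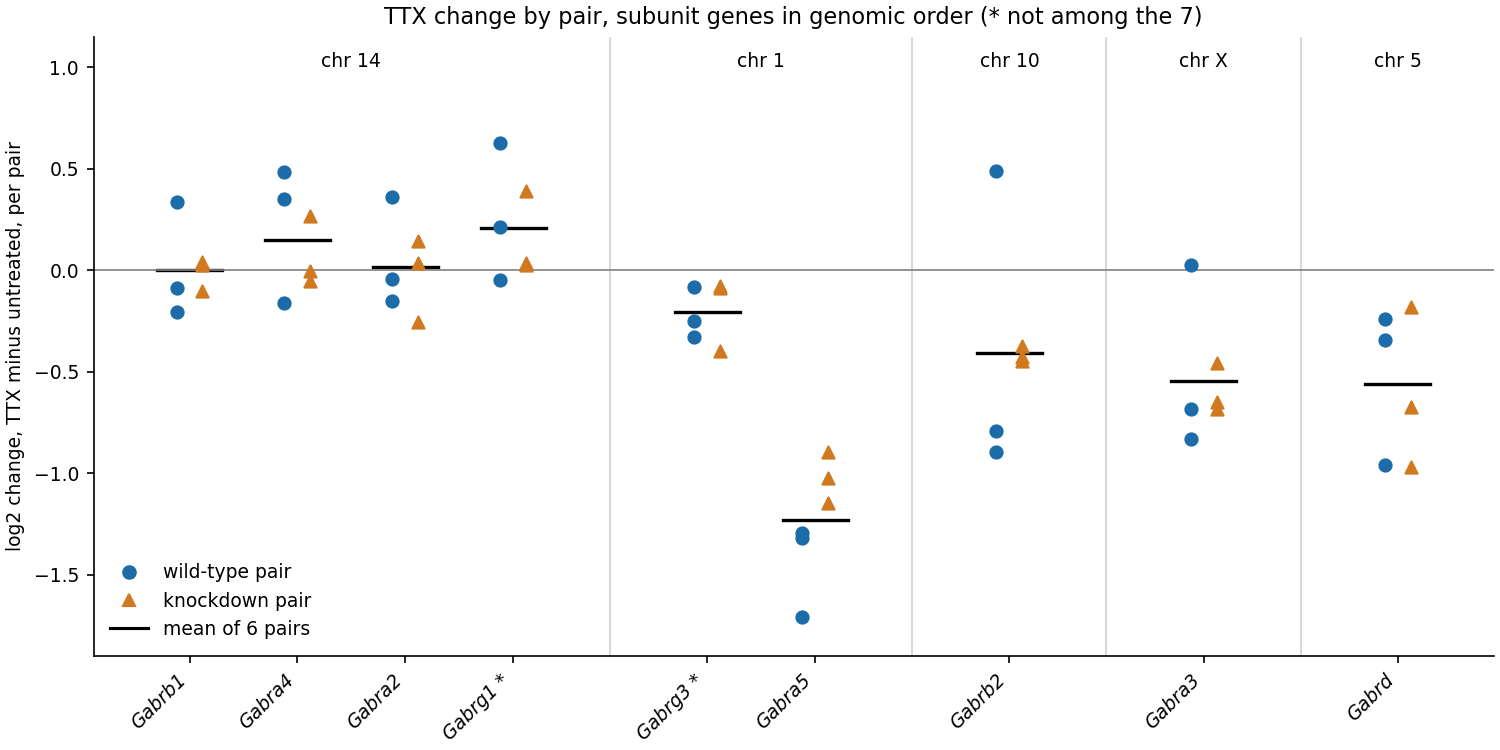
Log2 change of TTX minus untreated in each of the 6 pairs (y axis) for 9 subunit genes ordered along their chromosomes (x axis, asterisks mark genes that are not among the 7). Circles are wild-type pairs, triangles knockdown pairs and bars the mean of 6 pairs. The 4 genes of chromosome 14 scatter around or above 0, and the points of Gabra5 lie between -1.71 and -0.90.

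Of 9 other GABA-A subunit genes counted here, 5 passed the filter, and averaged over genotypes 1 of these fell with TTX and none rose. Gabrr2, a rho subunit known from the retina, fell by 0.85 at a mean of only 13.4 read equivalents (adjusted p = 0.0324). Gabrg1 (0.21), Gabrg3 (-0.21), Gabrq (-0.64) and Gabrr3 (0.29) did not pass, the last 2 at means of only 7.68 and 11.8 read equivalents.

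Genes of GABA metabolism, receptor scaffolds and chloride transport were counted in the same way. For these lists, the other subunits above and the cell type markers below, the share over all genes was 13% called and 7.54% called lower. In these counts a gene fell or rose only if it passed the test. Of 7 genes tested for GABA synthesis, vesicle loading, uptake and breakdown, 3 fell and none rose. By sign alone 4 were higher and 3 lower, with a median log2 change of 0.17. Those that fell were Gad1 (log2 change -0.99, adjusted p = 0.0106) and Gad2 (-0.59, adjusted p = 0.00894), the enzymes that make GABA, and Slc32a1 (-0.76, adjusted p = 0.00984), which loads it into vesicles. Of 18 scaffold and assembly genes, 11 were higher and 7 lower, with a median of 0.02. Among them 2 fell by small amounts, namely Gabarapl1 (-0.25), a relative of the receptor-associated protein GABARAP, and Iqsec3 (-0.43), an exchange factor of inhibitory synapses. Of 7 chloride transporter and regulator genes, 3 were higher and 4 lower, and Slc12a7, a potassium chloride cotransporter, rose by 0.35. Of 4 GABA-B receptor genes, 1 was higher and 3 lower, and none passed.

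Neuronal markers moved with the same treatment. All 15 pan-neuronal markers were lower with TTX, with a median log2 change of -0.36, and 10 of them fell. Their summed level was 120220 ± 11332 read equivalents in untreated wild-type, 94274 ± 8875 in wild-type with TTX, 153650 ± 29262 in untreated knockdown and 124905 ± 27129 in knockdown with TTX (SD, n = 3 each). Of the 15, the neurofilament gene Nefl was lowest at -0.98, so the change of Gabra5 (-1.23) was below that of every marker, while those of Gabra3, Gabrd and Gabrb2 lay within the markers' range of -0.98 to -0.08. Among 16 GABAergic interneuron markers 11 were lower and 7 fell, led by the neuropeptides Npy (-2.35), Sst (-1.66) and Vip (-1.54); 3 of the 7, Gad1, Gad2 and Slc32a1, are also in the list of GABA synthesis genes. Of 11 glutamatergic markers 3 fell and 1 rose, with a median of -0.23. Of 10 astrocyte markers 9 were higher, with a median of 0.16, and none passed, and of 10 oligodendrocyte lineage markers 8 were higher and Olig1 rose by 0.30. The part of cell composition in the subunit changes was not tested.

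**Figure D3:**
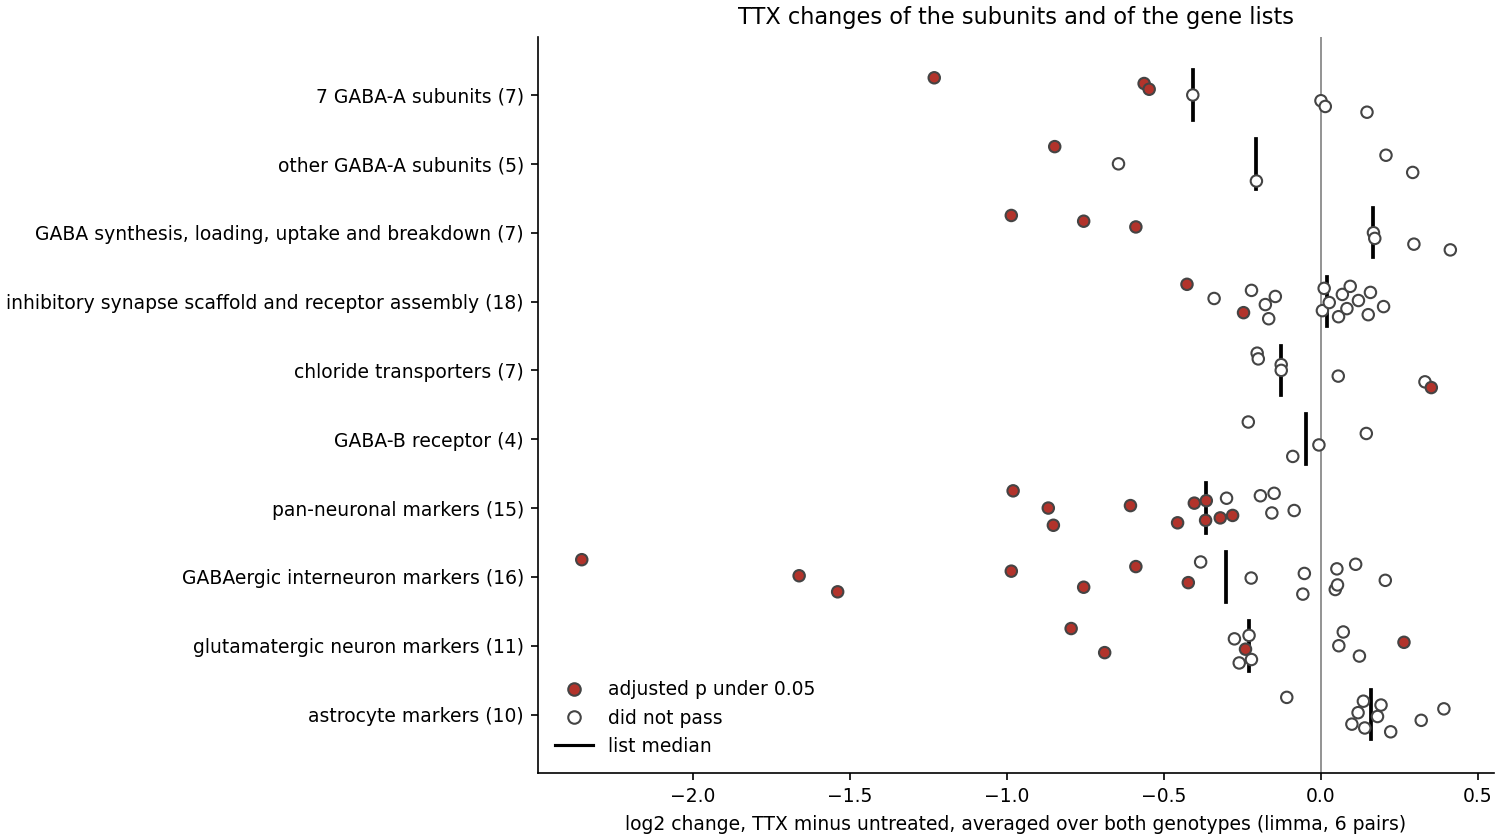
Log2 change with TTX averaged over both genotypes (x axis, limma over 6 pairs) for the 7 subunit genes and for lists of related or cell type marker genes (y axis, genes tested in parentheses). Filled points passed the test over all genes and black bars are list medians. Gabra5 is the leftmost point of the top line, below all 15 pan-neuronal markers, and astrocyte markers lie mostly to the right of 0.

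The TTX change was compared between genotypes by the interaction of TTX and knockdown. The log2 fall of Gabra5 was smaller in knockdown by 0.42 (SE 0.147, 95% interval 0.06 to 0.78), and each knockdown pair retained a larger share of its untreated level than each wild-type pair, 45.2% to 53.7% against 30.5% to 40.8%, a separation in this direction that 4.31% of all genes tested also had. This did not pass the test over all genes (unadjusted p = 0.0282, limma adjusted p = 0.974). In this comparison limma called 0 of 12073 genes (0%), and 455 genes (3.77%) had an unadjusted p under 0.05. The interactions of the other 6 members were between -0.15 and -0.02 on the log2 scale, each with an adjusted p of 0.974 or more.

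With Ehmt1 knockdown 6 of the 7 members had higher mean levels, and no member passed the test. In each of the 3 comparisons limma called 0 of 12073 genes (0%), with 736 genes (6.10%) at an unadjusted p under 0.05 in untreated cultures, 986 (8.17%) under TTX and 735 (6.09%) over both treatments. The median log2 difference of the 7 members over both treatments was 0.50, against 0.00 over all genes, and it was 0.55 in untreated cultures and 0.46 under TTX. The 5 other subunits counted had a median of -0.24, with Gabrg1 at -0.24 and Gabrg3 at 0.21. The rest had low levels, with Gabrq at 0.13, Gabrr2 at -0.37 and Gabrr3 at -0.30. For the 7 members the adjusted p over both treatments was 0.773 to 0.913. No member had all 6 knockdown libraries above all 6 wild-type libraries, as 0.845% of all genes tested did.

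Averaged by culture over both treatments, knockdown and wild-type did not overlap for Gabra3, Gabra4 and Gabrd, as was the case with knockdown higher for 6.22% of all genes tested. The geometric level of Gabra3 was 376, 421 and 329 read equivalents in wild-type cultures 1, 2 and 3 and 680.0, 532 and 476.5 in knockdown cultures, a log2 difference of 0.57 (SE 0.179, unadjusted p = 0.0164). Gabra4 was at 482, 670.2 and 488 in wild-type and 802, 699 and 823 in knockdown, a log2 difference of 0.52 (SE 0.172, unadjusted p = 0.0216). Gabrd was at 102.5, 117 and 81.9 in wild-type and 174, 126 and 129 in knockdown, a log2 difference of 0.50 (SE 0.196, unadjusted p = 0.0395). Of these 3 genes, Gabra4 was the 1 that had not passed the test for a TTX change.

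For the other members the cultures overlapped. Gabrb2 had a log2 difference of 0.56 (SE 0.336, 95% interval -0.25 to 1.36) and Gabra5 of 0.45 (SE 0.314, 95% interval -0.31 to 1.20), and both were highest in knockdown culture 1, at 852 and 2786 read equivalents. Gabrb1 differed by 0.18 (95% interval -0.18 to 0.54) and Gabra2 by -0.11 (95% interval -0.61 to 0.40). Leaving out 1 culture in turn gave differences of 0.24 to 0.84 for Gabrb2 and 0.15 to 0.70 for Gabra5, in both cases lowest without knockdown culture 1 and highest without knockdown culture 3. The range was 0.43 to 0.69 for Gabra3, 0.43 to 0.67 for Gabra4 and 0.36 to 0.62 for Gabrd. Without knockdown culture 1 the untreated difference of Gabra5 was -0.06.

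Pan-neuronal markers were also higher on average in the knockdown cultures, but with overlap, as knockdown culture 3 lay below wild-type culture 2. Over both treatments 14 of the 15 had a higher mean in knockdown, with a median log2 difference of 0.44 and none called. Against the mean of all libraries the markers averaged -0.29, -0.04 and -0.33 on the log2 scale in wild-type cultures 1, 2 and 3 and 0.60, 0.14 and -0.07 in knockdown cultures, with knockdown culture 1 highest, as for Gabra2, Gabra3, Gabra5, Gabrb2 and Gabrd. Of 11 glutamatergic markers 10 were higher, with a median of 0.40, and of 16 GABAergic interneuron markers 10 were higher, with a median of 0.27. Of 10 oligodendrocyte lineage markers 8 were lower, with a median of -1.18, and of 10 astrocyte markers 7 were lower, with a median of -0.11, none called in either list. Microglial and vascular markers were low, with 3 of 9 and 2 of 9 passing the filter. The part of cell composition in the knockdown differences was not tested.

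**Figure D4:**
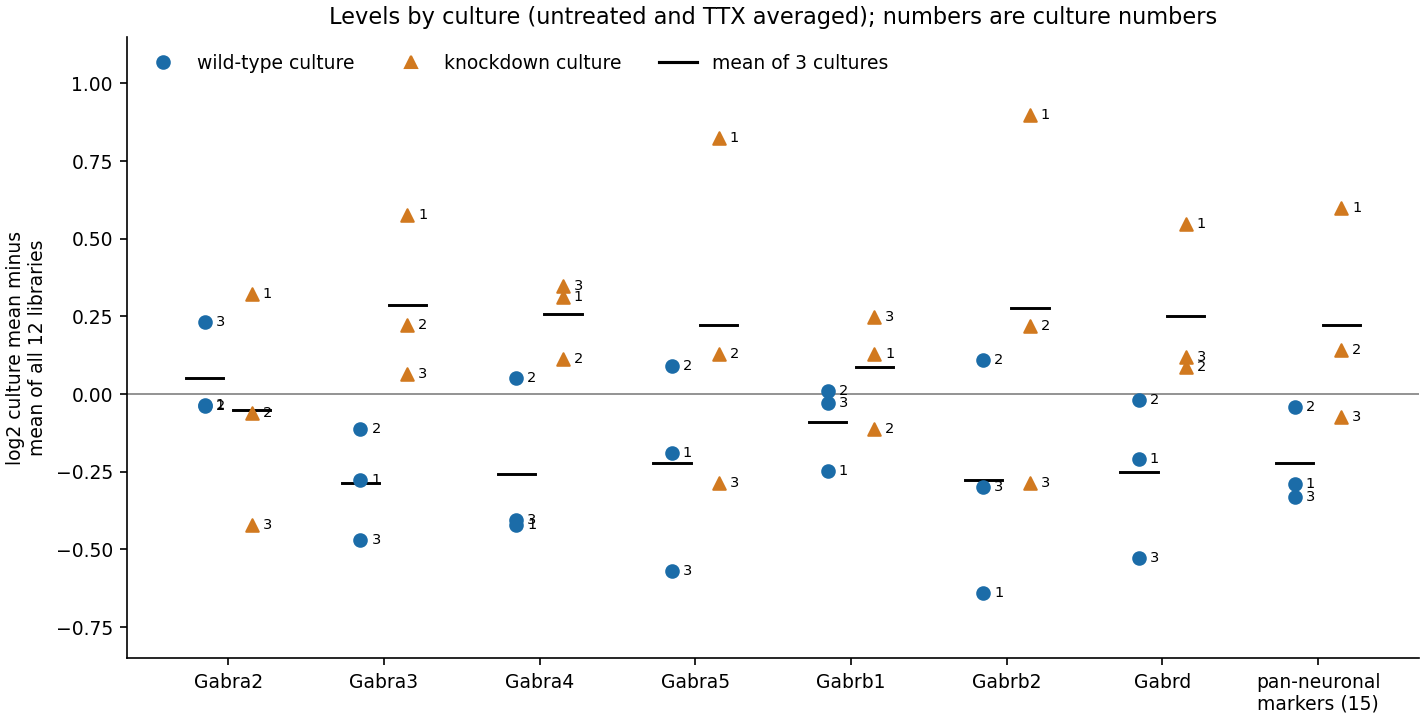
Level of each subunit gene and the mean of 15 pan-neuronal markers in the 3 wild-type (circles) and 3 knockdown (triangles) cultures, each averaged over its untreated and TTX library (y axis, log2 relative to the mean of all 12 libraries). Small numbers are culture numbers and bars are means of 3. Circles and triangles separate for Gabra3, Gabra4 and Gabrd, and knockdown culture 1 is the highest point for Gabra5, Gabrb2 and the markers.

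The authors' deposited tables gave a z score and a p-value per gene for each comparison. In the authors' deposited table for TTX in wild-type, Gabra5 had a z score of -5.71 (p = 5.73e-09), rank 5 from the lowest of 18905 entries, and in that for TTX in knockdown it had -2.55 (p = 0.00541). In the authors' deposited table of knockdown against wild-type with 6 libraries each, Gabra4 had a z score of 3.23 (p = 0.000636) and Gabra3 one of 2.48 (p = 0.00652). Adjusted by the Benjamini-Hochberg method over the entries of the authors' deposited tables, these p-values came to 2.09e-05 for Gabra5 in wild-type, 0.669 for Gabra5 in knockdown, 0.0285 for Gabra4 and 0.114 for Gabra3. The authors' comparison of knockdown and wild-type counts each of 6 libraries once, whereas the values above count each culture once. With each library counted once, the limma adjusted p was 0.153 for Gabra4 and 0.15 for Gabra3. The reason for the difference from the authors' values was not tested. The authors' deposited annotation tables list Gabra5 among genes lowered in wild-type cultures and among genes lowered in common, and none of the other 6 members. The sources used here do not say how these sets were drawn.

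Correlations between the log2 levels of members over the 12 libraries mix the TTX and the culture differences described above and are given as a description. Gabra3 and Gabrd had the highest correlation (r = 0.93, 12 libraries), followed by Gabra5 with Gabrd (0.88) and by Gabra3 with Gabra5 and with Gabrb2 (both 0.86). Gabra4 and Gabrb1, neighbors on chromosome 14, had r = 0.70, and Gabra2 had its highest correlation with Gabrb2 (0.48). Among 9967 genes with a mean of at least 100 read equivalents, those most like Gabra5 were Cbln2, a secreted synaptic organizer, Napb, a cofactor of vesicle fusion, and Zdhhc23, a palmitoyltransferase (r = 0.97 for each). Their averaged TTX changes were -0.95, -0.59 and -0.77 on the log2 scale, all called. They were picked over the same 12 libraries, so a fall like that of Gabra5 follows in part from the choice. Those most like Gabra3 were Hsd17b7, Coro2a and Lgi1, and those most like Gabrd were Chst8, the somatostatin receptor gene Sstr1 and Ywhab, with r from 0.95 to 0.97. For Gabrb2 they were Rab6b, Pde4d and Aak1, for Gabra4 Degs1, Rnf4 and Cdadc1, for Gabrb1 Pam, Trap1 and Fech, and for Gabra2 Cadm2, Pcnx and Tmem178b, with r from 0.93 to 0.97.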

How the data were processed

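Total RNA from 12 samples was depleted of ribosomal RNA and sequenced as strand-specific single-end libraries, per the labels' protocols. For the authors' own steps, the rn6 genome, GSNAP, DESeq and DESeq2 are listed with no version, per the submitters' processing notes. The deposited signal values are the summed base coverage of a RefSeq transcript, scaled by 1 factor per library, a reading taken from the values themselves: 100% were whole multiples of 1 step per library within 0.01. The authors deposited a z score and a p-value per gene and comparison, the p-value from DESeq per the file headers, and the sources used here do not say how the z score was made. Coverage was divided by a read length of 42, inferred from the values as the most common number of steps among the lowest entries. Of the low values, 43.7% to 54.5% per library were whole multiples of 42 steps. Since the values are coverage and not counts, log2(read equivalents + 1) was tested with limma 3.58.1 in R 4.3.3, two-sided. A fold change on this scale understates the change of low genes. Genes needed 10 or more read equivalents in 3 or more libraries (12073 kept, 5266 left out), with Benjamini-Hochberg adjustment over all of them and a threshold of 0.05. Of several entries per symbol the one with the highest mean was kept.

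TTX changes and the interaction were fitted with each pair (genotype and number) as a term, knockdown within a treatment with the 4 groups alone, and knockdown over both treatments on culture averages, 3 against 3. Pairing came from the data: deviations of same-numbered libraries correlated at 0.438, 0.613 and 0.849 in wild-type and 0.782, 0.695 and 0.767 in knockdown, and at -0.276 to 0.022 across genotypes. The series' design text calls the samples biological replicates, and the sources used here do not say how the cultures were prepared. The fits were tested on simulated data. Members, gene lists and tests were chosen with earlier results of these data known. Named genes are all members, list genes called in a comparison, other subunits, and the 3 genes most correlated with each member. Alternatives were no pairing, pairs as a random effect, another pseudocount, no filter, other scalings, a variance trend, summed entries and leaving out each pair. Some genes of the lists are not reported here.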

Additional observations from a re-analysis of the deposited data

How the results depend on the processing

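The number of genes called for TTX depended on the fit. The members' log2 values are the same by construction without pairs, with random pairs, with a variance trend, with no filter and with summed entries. Their sameness there is therefore no check of them. Another pseudocount and other scalings moved them little, as for Gabrb2 with TTX in wild-type (-0.41 to -0.39). Leaving out 1 pair in turn gave -0.84 to -0.15 for the same value. With no replicate block, 4 genes were called in wild-type, 0 in knockdown and 24 over both, and 0, 0 and 0 members. With the replicate block as a random effect (correlation 0.714), 730 genes were called in wild-type and 349 in knockdown. A pseudocount of 10 gave 601 and 211, a variance trend 1075 and 617 with 2 members called in knockdown, and no filter 11, 5 and, over both, 760, with 0 members called in knockdown and 1 over both. For knockdown, 3 genes were called over both treatments with each library counted and 15 with the replicate block by number, while no filter gave 1 in untreated cultures and 2 under TTX. No member was called for knockdown or the interaction in any of these. Upper-quartile rescaling turned the sign of values near 0, those of Gabrb1 for TTX in knockdown (0.0121) and for the interaction (0.0068) and of Gabrb2 for the interaction (0.0157). Leaving out 1 pair left 11 to 58 genes called in wild-type, 0 to 145 in knockdown, 140 to 1553 over both and 0 to 2 for knockdown under TTX, with 1 to 2, 0 to 2 and 1 to 3 members for the TTX comparisons. Signs that turned on leaving out a pair belonged to values with no call. For TTX in wild-type the leave-out ranges were -0.10 to 0.16 for Gabra2 and -0.15 to 0.12 for Gabrb1. For TTX in knockdown they were -0.11 to 0.0888 for Gabra2, -0.0275 to 0.13 for Gabra4 and -0.0388 to 0.032 for Gabrb1, and over both -0.0623 to 0.072 for Gabra2 and -0.0797 to 0.0552 for Gabrb1. For the interaction they were -0.19 to 0.0718 for Gabra2, -0.27 to 0.16 for Gabra3, -0.14 to 0.13 for Gabrb1, -0.26 to 0.43 for Gabrb2 and -0.31 to 0.0882 for Gabrd. For knockdown in untreated cultures they were -0.24 to 0.16 for Gabra2 and -0.0638 to 0.46 for Gabra5, and over both treatments -0.29 to 0.078 for Gabra2. The cause of these differences was not tested. Each group held 3 cultures, and Gabrd, Gabrq, Gabrr2 and Gabrr3 had low levels.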
